A study of Mus musculus with 6 samples.

Results

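The genes described here encode the cytoskeleton of the axon: the neurofilament subunits and related intermediate filaments (Nefl, Nefm, Nefh, Ina and Prph), and proteins of microtubules and of the growing axon tip (Tubb3, Mapt, Dcx, Stmn2 and Gap43). They were chosen by symbol, as every probe set that the platform annotation gave to 1 of these 10 symbols alone. The rule found 11 probe sets for the 10 genes, 1 for each gene and a second one for Ina, among 28815 probe sets and 19920 named genes on the array. Each of the 11 had a value on all 6 arrays, and no filter on low values was applied.

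The tissue was the cervical part of the spinal cord, taken from mouse embryos of embryonic day 11.5 with the dorsal part and the floor plate cut away, and its RNA was measured on whole-transcript arrays. The stated purpose was to look for effectors downstream of Nkx2-9, a homeodomain transcription factor of ventral progenitors, in spinal accessory motor neurons. One group of 3 arrays, with the letters A, B and C, was labelled Nkx2.9 knockout, and the other 3, with the same letters, were labelled wild type. Both groups had the same stage, tissue and labelling chemistry. The strain, the deleted part of the gene, and whether an array held 1 embryo or a pool could not be learned from the labels. The p-values therefore cover only the spread among these samples, which may be technical, and precision is limited by the 3 arrays per group.

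Each value was a log2 expression value from which the median of its probe set over the 6 arrays had been taken away. A value of 0 is therefore the middle of the 6 arrays, the 2 middle arrays of a probe set mirror each other around 0, and neither the level of a gene nor the presence of a tissue marker over background can be read. The targeted gene did not bear out the labels: Nkx2-9 stood at -0.071, 0.26 and 0.11 in knockout-labelled arrays A, B and C, against -0.21, 0.071 and -0.11 in wild-type arrays A, B and C. Its difference was 0.18 (SE 0.11, adjusted p = 0.812 in limma), and where its probes lie relative to the deletion was not given, so the group is called knockout-labelled, its arrays knockout-labelled A, B and C, and every direction rests on that label. Xist, the RNA of the inactive X chromosome, was at 0.11, 4.56 and 4.91 in knockout-labelled arrays A, B and C, against -0.25, -0.24 and -0.11 in wild-type arrays A, B and C, which set the knockout-labelled arrays B and C apart from the other 4. High Xist occurred only among knockout-labelled arrays, so whatever goes with it, embryo sex included, is partly confounded with the label. A fit with the value of Xist as a term, used below, compares the groups mainly through knockout-labelled A.

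Neurofilaments are the intermediate filaments of neurons. Light, medium and heavy subunits, with alpha-internexin and peripherin, assemble into filaments that fill the axon and set its calibre as it matures. Microtubules built with class III beta-tubulin run along the axon, where tau and doublecortin bind and stabilise them and stathmin-2 binds free tubulin, while GAP-43 lies under the membrane of the growth cone. These genes are switched on as spinal neurons leave the cell cycle, and motor neurons are rich in several of them while their axons leave the cord.

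Differences between the groups were small. Of the 10 genes, 9 were lower and 1, Nefm, was higher in the knockout-labelled arrays, and the median difference was -0.12 on the log2 scale, while the median over all 19920 genes was 0.0093 and 44.9% of them were lower. No member passed an adjusted p of 0.05 in limma, where 0 of the 28815 probe sets (0%) passed. The adjusted p of the members, from limma with Benjamini-Hochberg adjustment over all probe sets here and below, ran from 0.812 to 0.956, and their exact two-sided permutation p from 0.1 for Stmn2 to 0.9 for Nefm, where 0.1 is the lowest that 3 arrays against 3 allow. At an unadjusted p under 0.05, 1 of the 10 was lower, Mapt, and none was higher, where 2.5% of all probe sets were lower and 3.07% higher. None of these counts is called a change, and in bulk tissue fewer neurons and less of these RNAs per neuron cannot be told apart. The members are not replicates of each other, and they were picked as a group with earlier results of these arrays known.

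The median difference moved with single arrays. It was -0.061 without knockout-labelled C and -0.070 without wild-type B, and it reached -0.17 without knockout-labelled B. The per-array median of the 10 genes was -0.049, 0.0056 and -0.18 in knockout-labelled arrays A, B and C, against 0.011, 0.17 and -0.022 in wild-type arrays A, B and C. Wild-type B was thus the highest array and knockout-labelled C the lowest, and the knockout-labelled arrays B and wild-type A and C lay close together. The spread of that median between arrays of a group was 0.097 (pooled SD), close to the size of the difference between the groups.

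**Figure D1:**
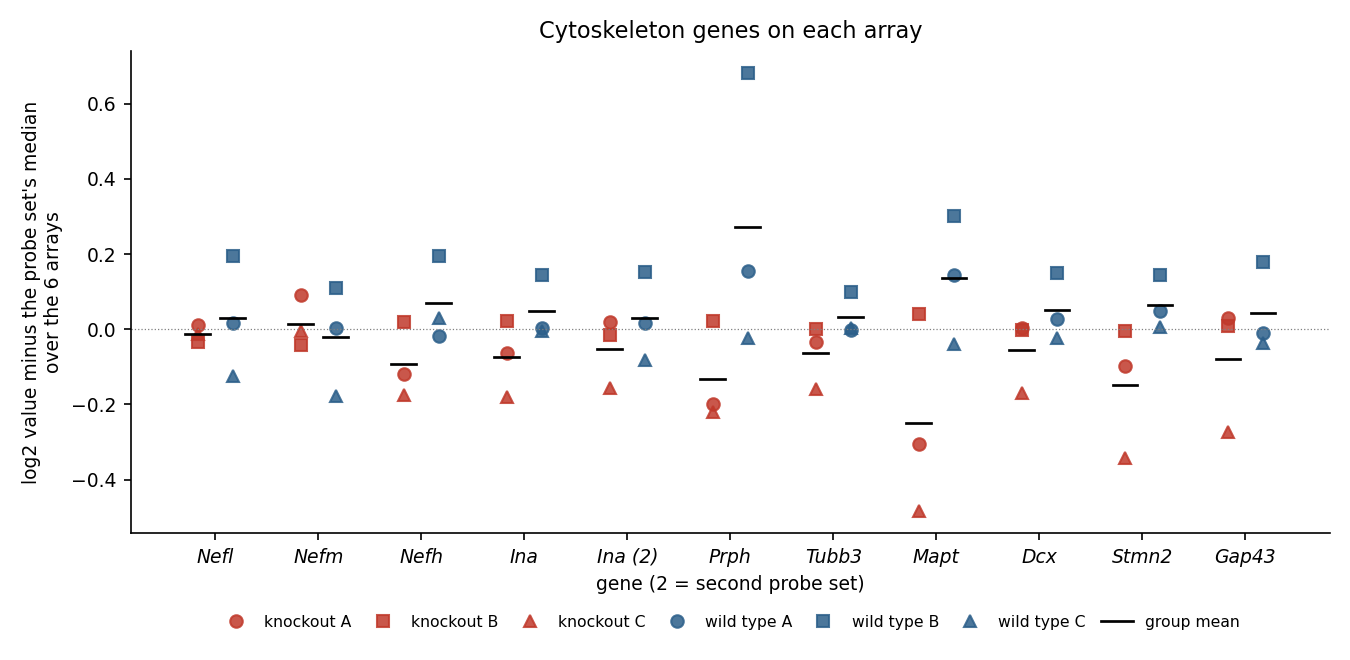
The centred log2 value of each probe set (vertical axis) is plotted for the 10 genes and the second Ina probe set (horizontal axis), with the knockout-labelled arrays in red on the left of each pair and the wild type in blue on the right, letters as symbols and the group mean as a line. Wild-type B is the highest array for every gene, and knockout-labelled C is the lowest for 8 of the 10.

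Among the neurofilament subunits, the light and medium chains showed hardly any difference and the heavy chain a small one. Nefl, the light chain that the other subunits need to form filaments, was at 0.012, -0.034 and -0.012 in knockout-labelled arrays A, B and C, against 0.018, 0.19 and -0.13 in wild-type arrays A, B and C. All 3 knockout-labelled arrays lay within the span of the wild-type arrays. The difference was -0.040 (SE 0.082, 95% interval -0.24 to 0.16, adjusted p = 0.948). Leaving out wild-type B turned it to 0.042, and leaving out wild-type C gave -0.12.

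Nefm, the medium chain, is the next protein-coding gene to Nefl on chromosome 14 in the RefSeq order of genes. It stood at 0.090, -0.043 and -0.0042 in knockout-labelled arrays A, B and C, against 0.0042, 0.11 and -0.18 in wild-type arrays A, B and C, so the groups overlapped and wild-type B and C formed the ends. The difference of 0.035 (SE 0.082, 95% interval -0.16 to 0.23, adjusted p = 0.956) turned to -0.0028 without knockout-labelled A and to -0.043 without wild-type C. In both Nefl and Nefm wild-type C was the lowest array, where knockout-labelled C was lowest for the other 8 members. The root mean square difference between the 6 values of Nefl and those of Nefm was 0.052, which placed Nefm at rank 93 among all genes in likeness to Nefl.

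Nefh encodes the heavy chain, which appears later than the other subunits as axons mature. Its values were -0.12, 0.018 and -0.17 in knockout-labelled arrays A, B and C, against -0.018, 0.20 and 0.029 in wild-type arrays A, B and C. The group means were -0.092 ± 0.099 in knockout-labelled and 0.069 ± 0.11 in wild-type arrays (SD over n = 3 per group), and knockout-labelled B lay above wild-type A. The difference of -0.16 (SE 0.078, 95% interval -0.35 to 0.027, adjusted p = 0.812) exceeded the SD within each group but did not pass the test. It was -0.22 without knockout-labelled B and -0.097 without wild-type B.

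Alpha-internexin and peripherin join the neurofilament subunits in the same filaments, the first early in many central neurons and the second mainly in neurons whose axons leave the central nervous system, motor and sensory neurons among them. Ina, measured by 2 probe sets, was at -0.064, 0.022 and -0.18 in knockout-labelled arrays A, B and C, against 0.0044, 0.15 and -0.0044 in wild-type arrays A, B and C on the first. The second gave 0.019, -0.016 and -0.16 in knockout-labelled arrays A, B and C, against 0.016, 0.15 and -0.082 in wild-type arrays A, B and C. The probe sets had the same highest and lowest arrays and differed by at most 0.083 on an array. The difference was -0.12 (SE 0.071, 95% interval -0.29 to 0.048, adjusted p = 0.812) on the first and -0.080 (SE 0.078, 95% interval -0.27 to 0.11, adjusted p = 0.86) on the second. On both the groups overlapped. Without knockout-labelled C the first was at -0.069, and without wild-type B the second was at -0.018.

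Prph had the widest gap between the group means of the 10 genes, and 1 array carried much of it. Peripherin RNA stood at -0.20, 0.022 and -0.22 in knockout-labelled arrays A, B and C, against 0.16, 0.68 and -0.022 in wild-type arrays A, B and C. Wild-type B was far above every other array, and knockout-labelled B lay between wild-type A and C. The means were -0.13 ± 0.13 in knockout-labelled and 0.27 ± 0.37 in wild-type arrays (SD over n = 3 per group). The difference of -0.40 (SE 0.18, 95% interval -0.84 to 0.036, adjusted p = 0.812), 1.32-fold lower in the knockout-labelled arrays, shrank to -0.20 when wild-type B was left out and widened to -0.55 when wild-type C was. Prph was also more variable than most of the table, since its SD within groups exceeded that of 96.1% of the complete probe sets.

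The sequence before the start site is shown for the member with the widest gap, Prph, and for Ina and Tubb3, the pair of members whose 6 values were nearest to each other (root mean square difference 0.026). The windows are the 250 bases before the start from RefSeq, build GRCm38.p6, plus strand, read 5′ to 3′: Prph at chr15:99054924-99055173, Ina at chr19:47014431-47014680 and Tubb3 at chr8:123411303-123411552. The table of start sites held 4 of the 10 members, Dcx being the fourth. Capitals mark the letters TATAA, the core of a TATA box, and GGGCGG, a GC box, each on either strand, so that CCGCCC marks a GC box of the opposite strand, as in Prph and Ina, and TTATAA in Tubb3 marks matches on both strands that overlap.
Prph: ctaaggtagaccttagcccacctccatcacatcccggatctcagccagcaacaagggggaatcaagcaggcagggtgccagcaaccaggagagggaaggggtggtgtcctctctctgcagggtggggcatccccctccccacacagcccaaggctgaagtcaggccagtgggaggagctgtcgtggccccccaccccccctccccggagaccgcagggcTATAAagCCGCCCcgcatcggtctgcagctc
Ina: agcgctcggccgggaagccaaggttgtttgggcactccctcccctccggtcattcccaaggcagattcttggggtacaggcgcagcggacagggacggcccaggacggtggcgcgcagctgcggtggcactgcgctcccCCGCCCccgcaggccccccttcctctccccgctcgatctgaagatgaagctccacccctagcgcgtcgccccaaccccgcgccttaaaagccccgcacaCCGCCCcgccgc
Tubb3: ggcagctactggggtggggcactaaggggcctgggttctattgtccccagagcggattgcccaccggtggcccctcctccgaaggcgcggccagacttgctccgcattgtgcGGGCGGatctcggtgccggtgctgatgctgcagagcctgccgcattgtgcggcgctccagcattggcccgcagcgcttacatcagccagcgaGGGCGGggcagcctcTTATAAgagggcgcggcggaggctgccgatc

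Prph and Tubb3 each held TATAA close before the start, its first base 31 and 30 bases away on the plus strand, and Ina held none. In Dcx these letters lay 98 bases before the first of its 2 start sites. Of all 32851 windows of this length, 22.8% held TATAA. Prph held GGGCGG once, 24 bases before the start, and Ina and Tubb3 held it 2 times each, while Dcx had none; 32.7% of all windows held it. AAGTG, letters found in the sites that Nkx2 proteins bind, was in none of these windows, where 40.7% of all windows held it. The G and C content was 65.2% for Prph, 70.8% for Ina, 68% for Tubb3 and 41.6% for Dcx, against a median of 52.4%. The Prph window lies inside the span that RefSeq gives the gene, because another transcript model starts upstream. A match of so few letters is a description of the window only, and the start sites used in these embryos were not measured.

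The microtubule genes were all lower in the knockout-labelled arrays, Mapt most. Tubb3, the class III beta-tubulin that marks young neurons, was at -0.034, 0.0016 and -0.16 in knockout-labelled arrays A, B and C, against -0.0016, 0.099 and 0.0035 in wild-type arrays A, B and C. Apart from knockout-labelled C and wild-type B, its values stayed within -0.034 and 0.0035. Its difference was -0.098 (SE 0.059, 95% interval -0.24 to 0.045, adjusted p = 0.812), slightly above the SD of the knockout-labelled arrays. It was -0.050 without knockout-labelled C and -0.065 without wild-type B. The means were -0.064 ± 0.085 in knockout-labelled and 0.034 ± 0.057 in wild-type arrays (SD over n = 3 per group), and its SD within groups was the lowest of the 10 genes.

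Mapt, which encodes the microtubule-binding protein tau, was the member with the lowest p. Its values were -0.31, 0.040 and -0.48 in knockout-labelled arrays A, B and C, against 0.15, 0.30 and -0.040 in wild-type arrays A, B and C. The knockout-labelled arrays A and C lay below every wild-type array, and knockout-labelled B lay above wild-type C, so the groups overlapped. The means were -0.25 ± 0.27 in knockout-labelled and 0.14 ± 0.17 in wild-type arrays (SD over n = 3 per group). The difference of -0.39 (SE 0.15, 95% interval -0.75 to -0.025, adjusted p = 0.812), 1.31-fold lower, had an unadjusted p of 0.0395 in limma and an exact two-sided permutation p of 0.2. Without knockout-labelled B it was -0.53 (unadjusted p = 0.00478), and without knockout-labelled C -0.27 (unadjusted p = 0.109). The direction held in each of these fits, and the side of the unadjusted threshold did not.

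Dcx, the doublecortin gene of migrating and young neurons, lies on the X chromosome. It was at 0.0027, -0.0027 and -0.17 in knockout-labelled arrays A, B and C, against 0.028, 0.15 and -0.022 in wild-type arrays A, B and C. Knockout-labelled C and wild-type B again formed the ends, and the other 4 arrays lay within -0.022 and 0.028. The difference was -0.11 (SE 0.071, 95% interval -0.28 to 0.062, adjusted p = 0.812). It was -0.052 without knockout-labelled C, -0.059 without wild-type B and -0.035 with the value of Xist as a term in the fit.

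Stmn2 encodes stathmin-2, a tubulin-binding protein of growth cones, and was the one member in which the groups did not overlap. It stood at -0.097, -0.0057 and -0.34 in knockout-labelled arrays A, B and C, against 0.048, 0.14 and 0.0057 in wild-type arrays A, B and C. The separation was narrow, since knockout-labelled B and wild-type C lay on either side of 0 by the same small amount. Over the table, 4.37% of genes had every knockout-labelled array below every wild-type array, and 1 of 10 members did. The difference was -0.21 (SE 0.094, 95% interval -0.44 to 0.011, adjusted p = 0.812), 1.16-fold lower, with an exact two-sided permutation p of 0.1. It was -0.12 without knockout-labelled C.

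Gap43, whose membrane protein is abundant in growth cones, had a single low array, knockout-labelled C. Its values were 0.030, 0.0095 and -0.27 in knockout-labelled arrays A, B and C, against -0.0095, 0.18 and -0.038 in wild-type arrays A, B and C. The knockout-labelled arrays A and B lay above wild-type A and C. The difference of -0.12 (SE 0.10, 95% interval -0.37 to 0.12, adjusted p = 0.84) was smaller than the SD of the knockout-labelled arrays, 0.17. It was -0.025 without knockout-labelled C, -0.054 without wild-type B and 0.0095 with Xist as a term.

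**Figure D2:**
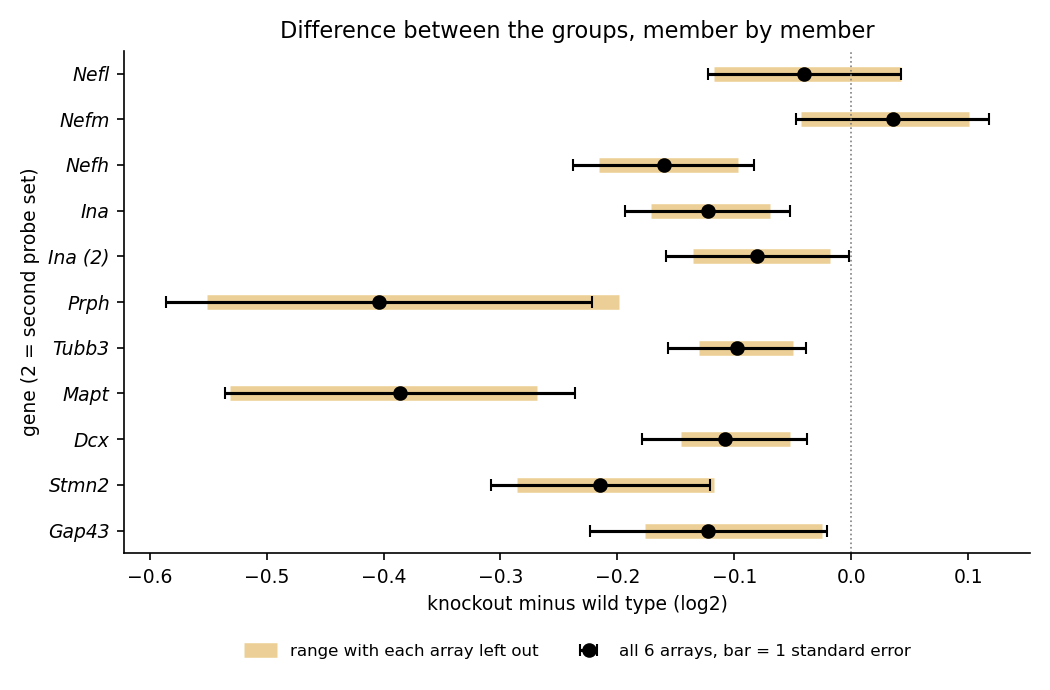
The difference of the knockout-labelled arrays from the wild type (horizontal axis, log2) is plotted for each probe set (vertical axis), with a point and a bar of 1 standard error for all 6 arrays and a band for the range with each array left out in turn. Prph and Mapt have the widest gaps, at -0.40 and -0.39, and the bands of Nefl and Nefm cross 0.

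The members shared the arrays at the ends of their range. Wild-type B was the highest of the 6 arrays in 10 of 10 genes, where 18.7% of all genes had it highest. Knockout-labelled C was the lowest in 8, where 19.6% of all genes had it lowest. Both held in 8 members and in 7.02% of all genes. Within the wild type, B exceeded the mean of A and C by 0.098 for Tubb3 up to 0.62 for Prph. Among the knockout-labelled arrays, C departed from the mean of A and B by -0.35 for Mapt, -0.29 for Gap43 and -0.29 for Stmn2, and by -0.028 for Nefm and -0.00041 for Nefl.

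Likeness between genes was measured as the root mean square difference of their 6 values, which also depends on how widely a gene varies. Ina, Tubb3 and Dcx were close to one another, at 0.026 for Ina and Tubb3, 0.031 for Tubb3 and Dcx and 0.032 for Ina and Dcx. Prph and Nefm were farthest apart, at 0.29. The 5 genes outside the list whose values were nearest to the per-array median of the members were Tom1l2, Dtx1, Gng2, Ovol3 and Clstn1, at 0.020 to 0.021, and their differences ran from -0.14 to -0.10. Nearest to Nefl were Emc9, Epdr1, Mmel1, Zfp959 and Mindy4, at 0.027 to 0.034, with differences from -0.053 to -0.014.

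Other genes of the axonal cytoskeleton, in 7 lists, leaned the same way as the members. Of 110 listed genes 104 were measured, 86 of them lower and 18 higher in the knockout-labelled arrays, with a median difference of -0.083. That is 82.7% lower, against 44.9% of all genes. None passed the adjusted threshold in limma. At an unadjusted p under 0.05, 5 were lower (4.81%, against 2.5% of all probe sets) and 1 higher (0.962%, against 3.07%).

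Genes that act beside the members were lower in most cases. Stathmins and collapsin response mediators, which bind tubulin as stathmin-2 does or steer growth cones, were lower in 8 of 8, with a median of -0.15. Stmn3 was at -0.30 (SE 0.15), Crmp1 at -0.25 (SE 0.12) and Dpysl3 at -0.17 (SE 0.12), none with an unadjusted p under 0.05. Without knockout-labelled C that median was -0.041 and 6 were lower, and without wild-type B it was -0.075. Microtubule-associated proteins were lower in 22 of 23 (median -0.11), including Map7d2, a microtubule-binding partner of kinesin-1, at -0.27 (SE 0.11), and Mapre3, which tracks growing microtubule ends, at -0.34 (SE 0.14). The count was 18 and the median -0.084 without knockout-labelled C, and the median was -0.17 without knockout-labelled B. Mapre3 did not overlap between the groups, at -0.22, -0.023 and -0.59 in knockout-labelled arrays A, B and C, against 0.023, 0.12 and 0.041 in wild-type arrays A, B and C. Over all genes, 4.37% had every knockout-labelled array below every wild-type array. That share is to be set beside this and the later separations in the same direction only.

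Tubulins other than Tubb3 were mixed, with 6 of 9 lower (median -0.067, -0.040 without knockout-labelled C and -0.11 without wild-type A). Tuba1a, the main alpha-tubulin of young neurons, was at -0.032, -0.058 and -0.063 in knockout-labelled arrays A, B and C, against 0.057, 0.12 and 0.032 in wild-type arrays A, B and C. Every knockout-labelled array lay below every wild-type array, and the difference was -0.12 (SE 0.043) at an unadjusted p of 0.0286 in limma. Tubb5, a beta-tubulin not restricted to neurons, was at -0.20 (SE 0.12) and Tubb4a at -0.16 (SE 0.096). The list of other intermediate filament genes and their linkers had 5 of 13 lower, with a median of 0.028. Its direction was not stable: the median of other intermediate filament genes was -0.0020, with 8 lower, without knockout-labelled B and -0.014 with Xist as a term, and 3 were lower without knockout-labelled A. It holds Nes, the nestin of neural progenitors, at 0.18 (SE 0.13), Bfsp1 at -0.13 (SE 0.066) and the linker gene Dst at 0.13 (SE 0.10). That list also covers lamins and filaments of other cell types, and the difference between it and the members was not tested.

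Growth cone and membrane skeleton genes were lower in 18 of 19 (median -0.065), and in 14 without wild-type B. Gprin1, a G protein regulated inducer of neurite outgrowth, stood at -0.088, -0.028 and -0.098 in knockout-labelled arrays A, B and C, against 0.15, 0.21 and 0.028 in wild-type arrays A, B and C. The groups did not overlap, and the difference was -0.20 (SE 0.059) at an unadjusted p of 0.0132, the lowest of the 104 genes. Ablim1 and Marcksl1, which bind actin, were at -0.17 (SE 0.083) and -0.11 (SE 0.052). Axonal motors and transport genes were lower in 16 of 18 (median -0.12, -0.037 without knockout-labelled C and -0.078 without wild-type B). Kif21b was at -0.38 (SE 0.19) and Dynll1, a dynein light chain, at -0.15 (SE 0.069). Dync1h1, the dynein heavy chain, ran the other way at 0.13 (SE 0.053) with an unadjusted p of 0.0426 in limma. Every knockout-labelled array lay above every wild-type array for it. The share of all genes separated in that direction was not counted.

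Kinases known to phosphorylate neurofilaments, tau or doublecortin were lower in 11 of 14 (median -0.082, -0.029 without knockout-labelled C and -0.053 without wild-type B). Cdk5r1, the neuronal activator of the kinase Cdk5, stood at -0.21, -0.016 and -0.36 in knockout-labelled arrays A, B and C, against 0.016, 0.20 and 0.063 in wild-type arrays A, B and C. Its groups did not overlap, and the difference was -0.29 (SE 0.098) at an unadjusted p of 0.023. Mapk10, the neuronal c-Jun kinase, was at -0.30 (SE 0.14) and Prkcb at -0.22 (SE 0.11). None of these passed the adjusted threshold.

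**Figure D3:**
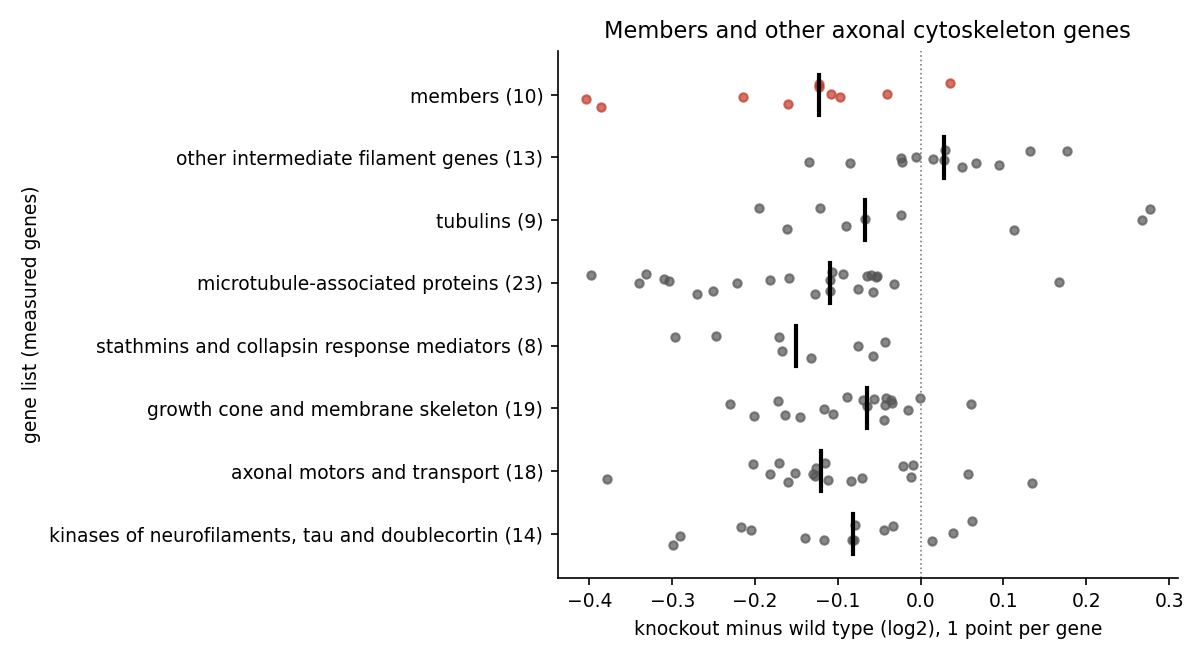
Each point is 1 gene, placed by the difference of the knockout-labelled arrays from the wild type (horizontal axis, log2) in its list (vertical axis, with the number of measured genes), and the vertical bar is the median of the list. The median of the members is -0.12, that of the stathmins and collapsin response mediators -0.15 and that of the other intermediate filament genes 0.028.

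Genes of differentiated neurons had the order of arrays seen in the members. Differentiated neuron genes had per-array medians of -0.098, 0.014 and -0.22 in knockout-labelled arrays A, B and C, against 0.055, 0.21 and -0.027 in wild-type arrays A, B and C. As for the members, wild-type B was highest and knockout-labelled C lowest. Over all genes 44.9% were lower, a share to set beside each marker count here and below. Of the differentiated neuron genes 12 of 13 were lower, with a median difference of -0.22. It was -0.15 without knockout-labelled C, -0.16 with wild-type B left out and -0.31 without knockout-labelled B. At an unadjusted p under 0.05 in limma 3 were lower, Elavl3, Syn1 and Syt1, where 2.5% of all probe sets were lower. Elavl3, an RNA-binding protein gene, was at -0.13 (SE 0.044). The synaptic vesicle genes Syn1 and Syt1 were at -0.31 (SE 0.11) and -0.44 (SE 0.17). Cell cycle genes had medians of 0.17, -0.10 and 0.25 in knockout-labelled arrays A, B and C, against -0.082, -0.54 and 0.038 in wild-type arrays A, B and C. Wild-type B was thus lowest there, all 14 measured genes were higher in the knockout-labelled arrays, and the median difference of 0.31 was 0.12 without wild-type B. Mcm6 was at 0.39 (SE 0.17), Plk1 at 0.34 (SE 0.17) and Aurkb at 0.36 (SE 0.18). The part of either list's order of arrays in the members' differences was not tested.

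Neural progenitor genes showed no common lean, with 5 of 11 lower and a median of 0.023, which lay between -0.071 and 0.059 with each array left out. Prom1 was at 0.36 (SE 0.13), Notch1 at 0.34 (SE 0.13) and Sox9 at -0.11 (SE 0.055). For Prom1 and Notch1 the unadjusted p was 0.035 and 0.0355 in limma, and the groups did not overlap. Of all probe sets, 3.07% were higher at an unadjusted p under 0.05 in limma. Every knockout-labelled array lay above every wild-type array for both, as for Onecut1, Isl2 and Runx3 below. The share of all genes separated upward was not counted, so these separations are not read as a result. Genes of motor neurons, cells rich in peripherin, were lower in 7 of 13 (median -0.0031). Chodl, a marker of fast motor neurons, was at -0.57 (SE 0.20), while the transcription factors Onecut1 and Isl2 were at 0.27 (SE 0.081) and 0.18 (SE 0.067). Their unadjusted p in limma was 0.0266, 0.0141 and 0.0366, and in none of them did the groups overlap. Chodl was separated downward, as 4.37% of all genes were, and 2.5% of all probe sets were lower at an unadjusted p under 0.05. The motor neuron median was 0.10 without knockout-labelled A and -0.061 without wild-type C. Sensory neuron genes of the dorsal root ganglion, another source of neurofilaments and peripherin, had medians of 0.0036, 0.099 and -0.059 in knockout-labelled arrays A, B and C, against -0.0093, -0.067 and 0.038 in wild-type arrays A, B and C. Their order of arrays was not that of the members, since knockout-labelled B was highest. Of 7 measured genes 4 were lower, and 2 without knockout-labelled C. Runx3 was at 0.18 (SE 0.071), Ntrk2 at -0.37 (SE 0.23) and Runx1 at 0.11 (SE 0.074). The groups did not overlap for Runx3, at an unadjusted p of 0.0393 in limma.

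Knockout-labelled C stood apart in genes of mesenchyme and vessels. Mesenchyme genes had medians of -0.043, -0.0044 and 1.18 in knockout-labelled arrays A, B and C, against -0.071, 0.16 and -0.0073 in wild-type arrays A, B and C. All 10 measured genes were higher in the knockout-labelled arrays, with a median of 0.37, and without knockout-labelled C it was -0.049 with 8 of them lower. Prrx1 was at 0.54 (SE 0.46), Meox1 at 0.26 (SE 0.17) and Col1a1 at 0.051 (SE 0.046). Wild-type B, where the members were highest, was also raised in some of these genes. Lum, Foxc2 and Twist1 were named because they were the highest of the list on that array. They stood at 1.66, 1.21 and 0.86 there, against 3.31, 3.01 and 2.32 in knockout-labelled C. Others were not, such as Meox1 at 0.0074 and Col1a1 at 0.015 in wild-type B. Vessel genes had medians of -0.11, 0.013 and 0.77 in knockout-labelled arrays A, B and C, against -0.021, 0.085 and -0.10 in wild-type arrays A, B and C, and 7 of 8 were higher, among them Cdh5 at 0.51 (SE 0.42), Kdr at 0.40 (SE 0.30) and Pecam1 at 0.26 (SE 0.18). The vessel median of 0.26 also turned without knockout-labelled C, to -0.058 with 5 lower. These values moved on the same array as the lowest values of 8 members, and their part in the members' differences was not tested.

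The remaining marker lists did not follow the order of arrays seen in the members. Erythroid genes were higher in all 5 measured genes, with medians of 0.12, -0.074 and 0.13 in knockout-labelled arrays A, B and C, against -0.41, -0.46 and 0.17 in wild-type arrays A, B and C. The median difference of 0.31 was 0.041 without wild-type B. Klf1 was at 0.37 (SE 0.21), Hbb-bh1 at 0.34 (SE 0.22) and Hba-x at 0.14 (SE 0.12). Macrophage genes centred on -0.0064, 4 of 7 being lower, between -0.050 and 0.061 with each array left out, and Cd68 was at 0.28 (SE 0.14), Mrc1 at 0.10 (SE 0.13) and Csf1r at -0.033 (SE 0.041). Neural crest and Schwann cell precursor genes, of which 4 of 6 were measured, were all higher with a median of 0.034. Erbb3 was at 0.11 (SE 0.15), Sox10 at 0.047 (SE 0.13) and Foxd3 at 0.021 (SE 0.092), and the median turned to -0.064 without knockout-labelled C. No gene of any marker list passed the adjusted threshold in limma.

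**Figure D4:**
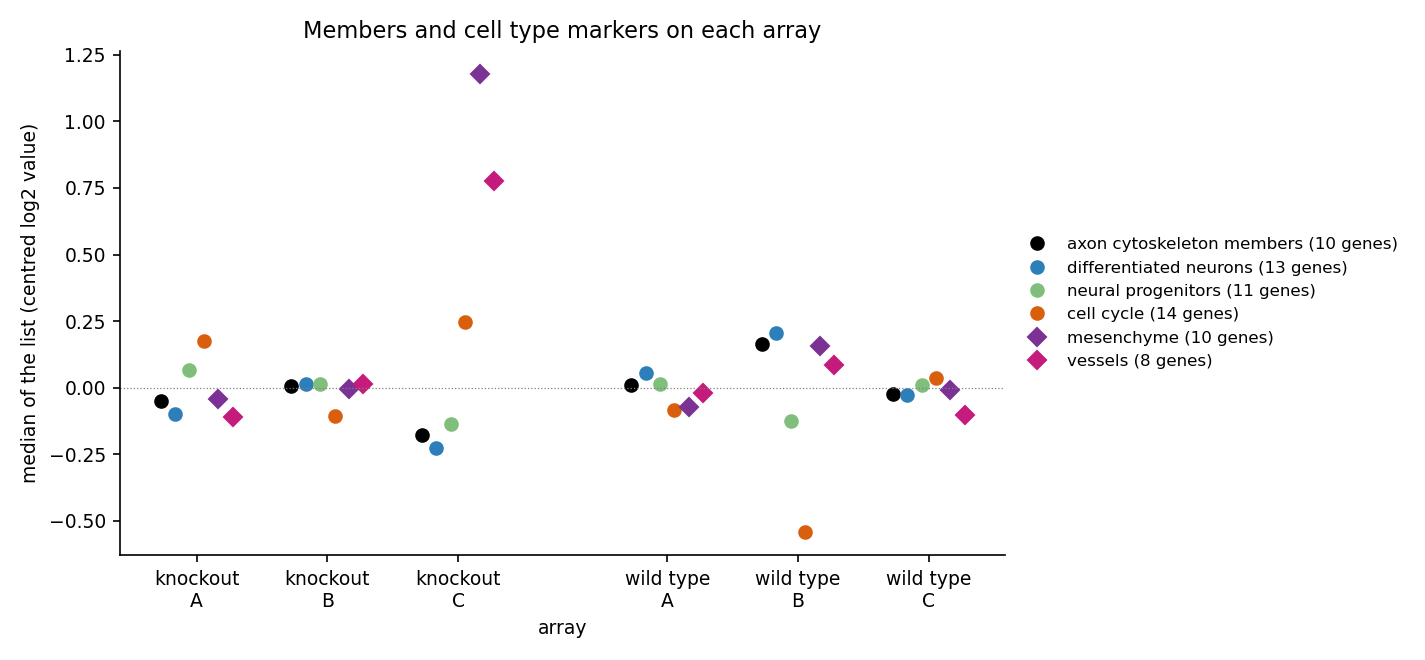
The median centred log2 value of each gene list (vertical axis) is plotted on each of the 6 arrays (horizontal axis), with circles for neural lists and cell cycle genes and diamonds for mesenchyme and vessels. The members and the differentiated neuron genes are highest on wild-type B and lowest on knockout-labelled C, where mesenchyme stands at 1.18.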

How the data were processed

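Per the labels' protocols, RNA was amplified into biotin-labelled sense-strand cDNA. The authors deposited log2 values, which the submitters' processing notes credit to RMA, a method that corrects background, applies quantile normalization and summarises the probes of a set. No version or setting of it is given in the sources used here, and the log base was taken as 2, the base of RMA. In the deposited table each of the 28791 complete probe sets had a median of 0 within 1e-06 over the 6 arrays, while 24 others lacked a value in wild-type C and entered the fit with 5 arrays.

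Genes were named from the platform annotation where it gave 1 symbol (21780 probe sets; 1605 had several and 5430 none); all 10 members matched RefSeq by Entrez identifier. Outside the members, the probe set with the most accessions stood for a gene. The fit used lmFit and eBayes of limma 3.58.1, run under R 4.3.3, across all probe sets with Benjamini-Hochberg adjustment, and the exact permutation test of single genes used scipy 1.17.1. The fit was run on simulated independent values with planted differences larger than any of the members'. That run does not show how it performs at the members' size. Figures were drawn with matplotlib 3.10.9. SDs are over 3 arrays and standard errors and intervals are from limma. The named genes were the members, Nkx2-9, Xist, the 3 genes of lowest p in each list, and the 5 genes of most similar values. Lum, Foxc2 and Twist1 were named outside that rule, for their values on wild-type B and knockout-labelled C. The members and lists were chosen with earlier results of these data known. A filter at the 30th percentile of level had been planned and was not run, since the centred values hold no level. Arrays of the same letter were not taken as pairs. The alternatives are named in the closing section.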

Additional observations from a re-analysis of the deposited data

How the results depend on the processing

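Across 15 alternatives (quantile normalization, array medians centred, a replicate block of the letters, array weights, a robust variance prior, unequal variances, 1 probe set or the mean per gene, Xist as a term, and each array left out), 7 of the 10 genes kept their direction in all, and none passed the adjusted threshold in any. The median of the members lay between -0.17 and -0.061. By design, the replicate block, robust variance prior, unequal variances and 1 probe set per gene leave a member's difference as it is. Centring array medians shifts all genes alike, and the mean per gene alters only Ina among the members. These alternatives therefore say little on the stability of direction. The exceptions in direction were Nefl (0.042 without wild-type B; -0.12 without wild-type C), Nefm (-0.0028 without knockout-labelled A, -0.043 without wild-type C; 0.10 with wild-type B left out and 0.12 with Xist as a term), and, with Xist as a term, Gap43 (0.0095) and the second Ina probe set (0.0063). With Xist as a term the difference widened for Prph (-0.46), Mapt (-0.42) and Nefh (-0.18), and it shrank or turned for the other lower members. The count of members at an unadjusted p under 0.05 in limma was 1 with all arrays and between 0 and 3 with an array left out. It was 4 with the replicate block, which brought no member past the adjusted threshold. The count of 3 came without knockout-labelled B. Over all 28815 probe sets the count also rose, from 1605 to 2552 with the replicate block and to 2871 without knockout-labelled B. The rise was thus not confined to the members. Deviations from the group means correlated over probe sets at 0.165, 0.216 and 0.0159 between same-letter arrays A, B and C. Arrays A and B correlated best with their own letter, the crossed pairs of A and B being at -0.187 and -0.182. Knockout-labelled C and wild-type C did not, at 0.0284 and 0.0436 with the A array of the other group. The planned filter on low values was not run, since no level is left.

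Over the whole table, 0 probe sets passed the adjusted threshold, and with each array left out between 0 and 5 did, the 5 without knockout-labelled A. The count at an unadjusted p under 0.05 was 1605, and it was 2552 with the replicate block and 928 with unequal variances, and between 977 (without wild-type B) and 2871 (without knockout-labelled B) with an array left out. The cause of these shifts was not tested. Signal over background could not be read from centred values, so whether a probe set was dim is not known.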
